A study of Mus musculus with 2 samples.

Results

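The small leucine-rich proteoglycans described here are 8 genes, Dcn, Bgn, Aspn, Lum, Fmod, Prelp, Omd and Ogn, chosen by name from the 32285 genes of the matrices. They were followed through the skin of E14.5 mouse embryos, a stage at which hair follicles begin to form. The Wntless mutant library came from embryos in which K14Cre, a Cre transgene driven by a keratin promoter of the basal epidermis, had been combined with a floxed allele of Wntless (Wls), the carrier that Wnt ligands need for secretion. The wildtype library came from littermate controls, labelled wildtype, and which of the bred alleles those embryos carried is not given in the sources used here. Each library pooled 2 to 3 embryos of flank and dorsolateral skin, dissociated with trypsin and sorted after DAPI staining, and the libraries were prepared and sequenced together. The promoter of the transgene is active in keratinocytes, so the deletion is aimed at the epidermis and not at the dermis that holds most of the members.

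Small leucine-rich proteoglycans are secreted proteins built around a curved array of leucine-rich repeats that binds collagen. They set the thickness and spacing of collagen fibrils, and several of them also bind growth factors such as TGF-beta. Class I holds decorin (Dcn), biglycan (Bgn) and asporin (Aspn), of which decorin and biglycan carry chondroitin or dermatan sulfate chains. Class II holds lumican (Lum), fibromodulin (Fmod), PRELP (Prelp) and osteomodulin (Omd), of which lumican, fibromodulin and osteomodulin can carry keratan sulfate. Class III holds osteoglycin (Ogn). In skin, decorin is the best known of them, and mice without it have fragile skin with irregular collagen fibrils.

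The mutant library held 10449 barcodes with a median of 14602 UMIs, against 9065 barcodes with a median of 11341 UMIs in the wildtype library. The authors' dermal list gave 5028 mutant and 5300 wildtype cells, in which a median of 7 of 8 fibroblast markers was detected in both libraries. Wls was at 7.64 CPM (33 UMIs, 95% Poisson interval 5.26 to 10.7) in mutant and 122 CPM (1101 UMIs, 115 to 130) in wildtype epidermis-like cells, while dermal-list cells had 77.0 and 91.8 CPM. The libraries shared 19 barcodes, 4 of them on both dermal lists. There was 1 library per genotype, so no difference below has a replicate check or a test, and every interval is a 95% interval for counting error only. A UMI stands for 1 captured 3′ end, so levels were scaled to the UMI total of the cells (CPM) and not to gene length.

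Most members sit beside a relative in the genome (GRCm38, GENCODE coordinates). Dcn (chromosome 10, 97479609 to 97518143) lies upstream of Lum (97565128 to 97572703) on the plus strand, with Kera and Epyc, both family relatives, next in line. Aspn (chromosome 13, 49544443 to 49567565), Omd (49582462 to 49592822) and Ogn (49608046 to 49624501) follow each other on the plus strand. All of them lie inside Cenpp, a centromere protein gene on the minus strand. Prelp (chromosome 1, 133910304 to 133921414, minus strand) and Fmod (134037254 to 134048277, plus strand) are neighbours, and Bgn stands alone on chromosome X (73483602 to 73495933). The RefSeq promoter table (GRCm38.p6) held 6 of the 8 members. The sequences below are the 150 bases just before the start of the 3 neighbours on chromosome 13, shown because Aspn and Ogn were found in the same cells and Omd in hardly any, and of Bgn. Capitals mark matches on either strand to any of 5 motifs, and no match overlapped another in these windows. The motifs were the TATA box TATAAA, the TCF/LEF core CTTTGA, the AP-1 site written as TGANTCA, the E-box written as CANNTG, and CAGAC, which is a short SMAD element.
Aspn, chr13:49544293-49544442, plus strand: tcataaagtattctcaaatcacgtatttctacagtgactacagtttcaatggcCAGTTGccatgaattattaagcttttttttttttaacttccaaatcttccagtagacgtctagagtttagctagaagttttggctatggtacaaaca
Omd, chr13:49582312-49582461, plus strand: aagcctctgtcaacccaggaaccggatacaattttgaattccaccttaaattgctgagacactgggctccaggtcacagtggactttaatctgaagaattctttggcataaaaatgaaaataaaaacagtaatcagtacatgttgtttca
Ogn, chr13:49607865-49608014, plus strand: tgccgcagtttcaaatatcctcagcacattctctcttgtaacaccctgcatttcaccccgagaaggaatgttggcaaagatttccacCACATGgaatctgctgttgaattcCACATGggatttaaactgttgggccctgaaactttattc
Bgn, chrX:73483451-73483600, plus strand: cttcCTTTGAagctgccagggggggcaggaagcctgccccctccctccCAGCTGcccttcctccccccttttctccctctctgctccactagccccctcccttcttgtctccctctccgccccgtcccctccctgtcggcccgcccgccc
CANNTG was present once before Aspn, in 2 places before Ogn and once before Bgn, and 47.7% of the 32851 promoters in the table held it in the same window. CTTTGA occurred before Bgn and before none of the other 5 members in the table, against 7.93% of all promoters. The Omd window held no match to any of the 5 motifs. TATAAA and TGANTCA, found in 7.57% and 4.24% of all promoters, were in none of the members' windows, and CAGAC, in 27.7% of all, was found before Fmod alone. The windows before Aspn and Omd had 33.3% and 38% G and C, against a median of 54% over all promoters. A match of letters is not a bound site, and its absence says only that these letters are missing from the window.

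The 8 genes made up 0.483% of all UMIs of mutant dermal-list cells and 0.380% of those of wildtype dermal-list cells. Prelp, Aspn and Ogn were at least 1.5-fold higher in the mutant dermis, and none of the 8 was at least 1.5-fold lower. Of the 15609 genes with 20 or more UMIs in these cells, 10.9% were at least 1.5-fold higher and 5.64% at least 1.5-fold lower, and the median log2 ratio of all of them was 0.03. With the marker classes described below given equal weight in both libraries, none of the 8 genes passed 1.5-fold, although Aspn, Prelp and Ogn each did within Wnt-active cells. Those cells came from unlike clusters in mutant and wildtype, and Prelp rested on 24 and 21 UMIs there.

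Decorin was the most abundant member, with 2829.9 CPM (229732 UMIs) in mutant and 2059 CPM (129469 UMIs) in wildtype dermal-list cells, a log2 ratio of 0.46 (0.45 to 0.47). Nearly every cell had it. After each cell was thinned to 9000 UMIs, 4661 of 4661 mutant cells (100%, 99.9 to 100) and 3979 of 4000 wildtype cells (99.5%, 99.2 to 99.7) held a Dcn UMI. The median was 24 UMIs per mutant cell, with quartiles of 19 and 31, and 17 per wildtype cell, with quartiles of 12 and 23. The libraries thus differed in UMIs per cell and hardly in the share of cells with Dcn. These medians pool the cell classes described below, whose shares differed between the libraries. The other member of the neighbouring pair, lumican, a regulator of fibril growth in cornea and skin, had 1435 CPM in mutant and 1335 CPM in wildtype cells, a log2 ratio of 0.10 (0.09 to 0.12). Lum was in 99.6% of thinned mutant and 99.4% of thinned wildtype cells, with medians of 12 and 11 UMIs. Dcn therefore stood at 1.97 UMIs for each Lum UMI in the mutant dermis and 1.54 in the wildtype dermis.

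Fibrillar collagen UMIs, here those of Col1a1, Col1a2 and Col3a1, were also higher, at 16406 CPM in mutant and 11277 CPM in wildtype dermal-list cells. Set against them, decorin was at 172 UMIs per 1000 collagen UMIs in mutant and 183 in wildtype cells, and lumican at 87.5 and 118. Relative to these collagen UMIs, Dcn thus stood close in both libraries, while Lum was lower in the mutant dermis as a whole. Among the marker classes described below, that held for Lum in Wnt-active cells (118 in mutant, 165 in wildtype) and upper cells (96.9 and 113). In lower cells Lum was at 51.6 and 50.2, and in cells of no class at 73.8 and 68.2. Dcn stood at 3.23 and 3.36 UMIs for each Lum UMI in lower cells. Biglycan, the closest relative of decorin, had 251 CPM in mutant and 217 CPM in wildtype cells (log2 ratio 0.21, 0.18 to 0.24) and was present in 84.6% and 81.55% of thinned cells. Bgn is X-linked, but Xist was at 0.172 and 0.604 CPM and the Y-linked Ddx3y at 69.8 and 65.3 CPM, so both libraries were near 0 for Xist and alike in the Y-linked gene.

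The remaining members were patchy. Asporin, an inhibitor of TGF-beta signalling that binds collagen and calcium, had 96.0 CPM (7791 UMIs) in mutant and 51.4 CPM (3232 UMIs) in wildtype cells, a log2 ratio of 0.90 (0.84 to 0.96). It was found in 20.9% of thinned mutant and 13.4% of thinned wildtype cells. The tenth of cells with most Aspn held 77.5% of its UMIs in the mutant and 89.1% in the wildtype dermis. Osteoglycin, which helps to shape collagen fibrils and was first described in bone, had 197 CPM in mutant and 121 CPM in wildtype cells (0.70, 0.66 to 0.74), with 53.2% and 38.9% of thinned cells positive. Aspn and Ogn thus differed in how many cells held them as well as in their summed level. Cenpp, whose gene spans both on the other strand, had 22.1 CPM in mutant and 30.4 CPM in wildtype cells, the opposite direction. Whether the counting used strand is not given in the sources used here.

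Prelp, a basement membrane anchor protein that binds perlecan and collagen, had 14.7 CPM (1193 UMIs) in mutant and 6.98 CPM (439 UMIs) in wildtype cells, a log2 ratio of 1.07 (0.91 to 1.23). Its share of thinned cells was 9.25% in the mutant and 4.88% in the wildtype dermis. Fibromodulin, best known from tendon, had 6.69 and 5.03 CPM (0.41, 0.21 to 0.62), with 5.06% and 3.85% of cells positive. That direction did not hold within upper cells (-0.35, -0.80 to 0.11) or Wnt-active cells (-1.90), and it turned to -0.18 with classes weighted alike. Omd, a bone and tooth proteoglycan, was near the limit of detection, with 38 UMIs in mutant and 20 UMIs in wildtype dermal-list cells (0.468 and 0.318 CPM). Its interval, from -0.26 to 1.42 on the log2 scale, held both no difference and more than a doubling. From highest to lowest, the order was Dcn, Lum, Bgn, Ogn, Aspn, Prelp, Fmod and Omd in both libraries, and no 2 neighbours in it had overlapping Poisson intervals.

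These levels were compared with those of cells that should lack the genes. In erythroid-like cells (1445 mutant and 647 wildtype barcodes), Dcn was at 133 and 61.7 CPM and had a UMI in 9.81% and 9.73% of thinned cells. Aspn was in 0.917% and 1.17% of those cells, Fmod in 0.183% and 0%, Prelp in 0.275% and 0.389%, and Ogn in 2.29% and 3.11%. The dermal shares of Dcn, Aspn, Fmod, Prelp and Ogn were all above these, at the same depth per cell. The shallower wildtype cells had lower unthinned shares for some members, for example 61.2% of mutant and 43.3% of wildtype dermal-list cells for Ogn without thinning.

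**Figure D1:**
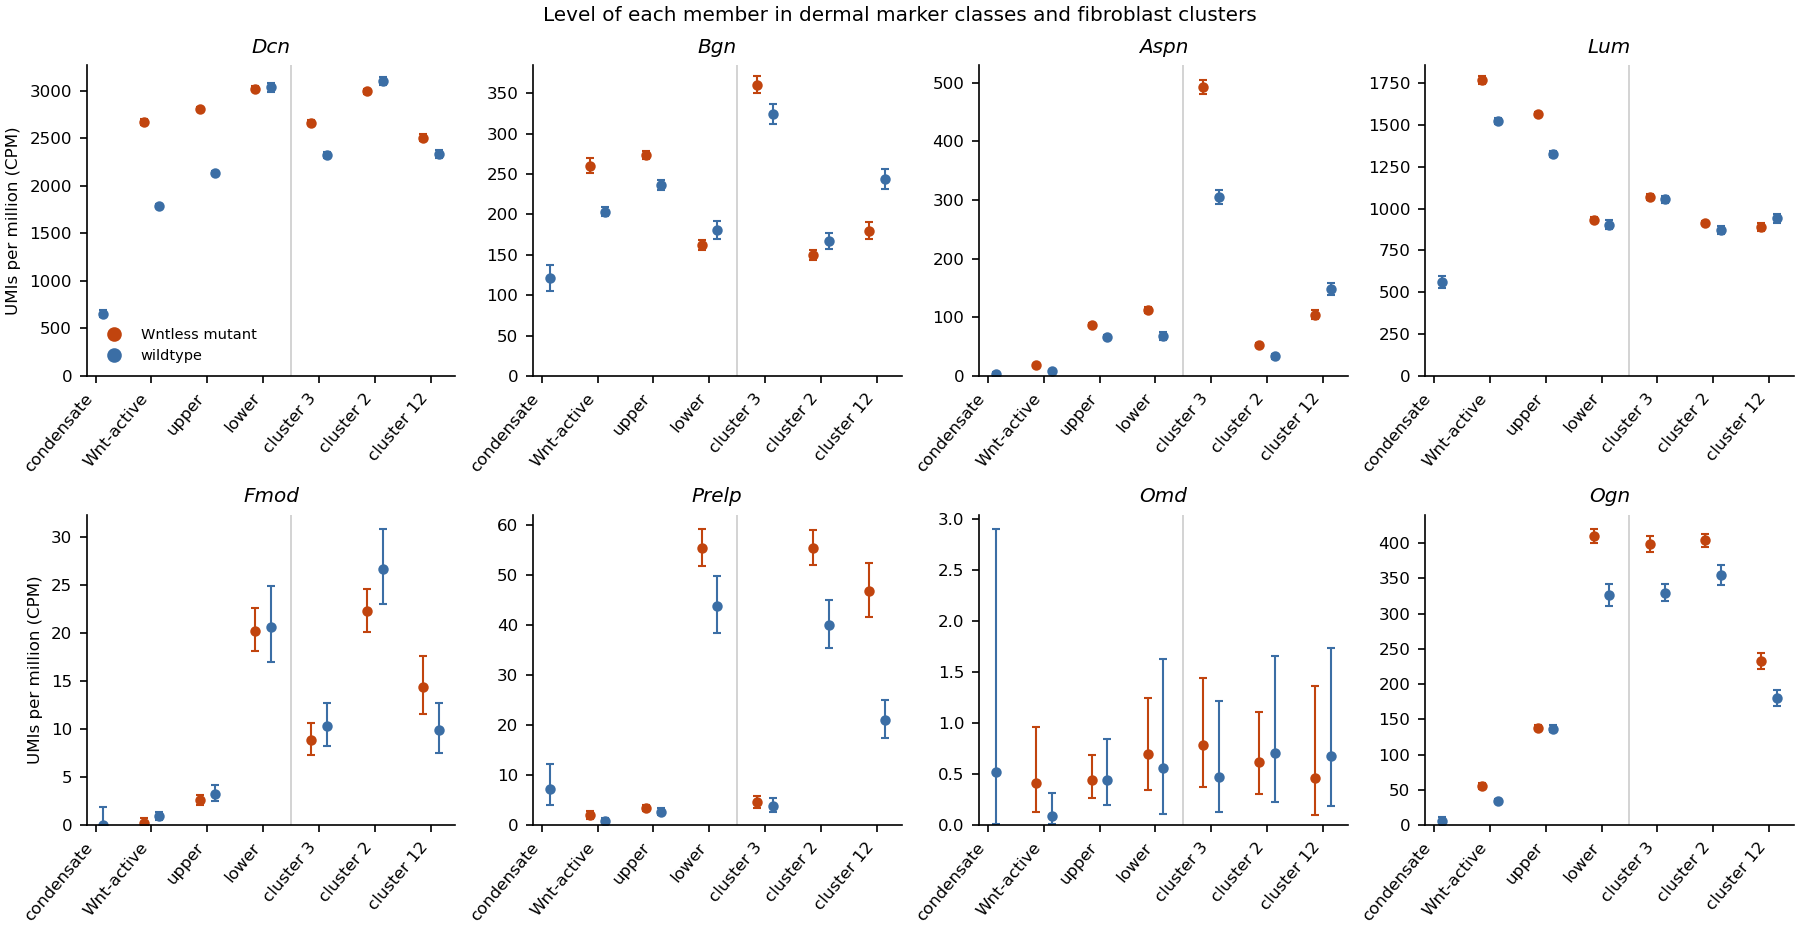
Level of each member, in CPM (y axis from 0), in dermal marker classes (left of the grey line) and in 3 fibroblast clusters (right of it). Points are the Wntless mutant (left) and wildtype (right) libraries with exact Poisson 95% intervals. Prelp and Fmod are high in lower cells and clusters 2 and 12, Aspn is highest in cluster 3, Lum is higher in upper than in lower cells, and condensate cells, found in the wildtype library only, are low in Dcn, Lum, Bgn, Aspn and Ogn.

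Dermal-list cells with 9000 or more UMIs were split by marker counts. Condensate cells, the mesenchymal clusters under a forming follicle, needed 3 or more of 8 condensate genes, and Wnt-active cells 3 or more of 8 Wnt target genes. The rest were upper or lower cells when they held at least 2 markers of that layer and more than of the other. Condensate cells were 0 of 4661 in the mutant, which allows a share of up to 0.0791%, and 161 of 4000 in the wildtype dermis. Wnt-active cells were 705 (15.1%) and 1683 (42.1%), upper cells 2530 (54.3%) and 1478 (36.95%), and lower cells 945 (20.3%) and 434 (10.85%), with 481 and 244 cells in no class. The Wnt-active class is a range and not a type: 521 mutant and 711 wildtype cells stood exactly at its limit and 1128 and 787 had 1 gene fewer. Its mutant cells lay mostly in cluster 0 (62.1%) and its wildtype cells mostly in clusters 1 (36.8%) and 7 (28.1%). A median of 3 upper-layer and 1 lower-layer gene was detected in mutant and 3 and 0 in wildtype Wnt-active cells.

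The layers carried different members, and did so in both libraries. Prelp was at 55.4 CPM in lower and 3.38 CPM in upper cells of the mutant, a 16.4-fold difference (log2 4.03, 3.78 to 4.30). In the wildtype library it was at 43.9 CPM in lower and 2.66 CPM in upper cells, a 16.5-fold difference (4.04, 3.61 to 4.50). The Prelp difference between layers was thus of similar size in both libraries. Fmod was 7.81-fold higher in lower cells of the mutant (20.2 against 2.59 CPM) and 6.25-fold higher in those of the wildtype library (20.7 against 3.30 CPM). Ogn was 2.97-fold higher in lower mutant cells (409.6 against 138 CPM) and 2.39-fold higher in lower wildtype cells (326 against 137 CPM). Of all genes with enough UMIs, 19.3% in the mutant and 17.3% in the wildtype library were at least 1.5-fold higher in lower cells, and 14.9% and 14.2% at least 1.5-fold lower.

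Lumican and biglycan ran the other way. Lum was at 934 CPM in lower and 1562 CPM in upper cells of the mutant (log2 -0.74, -0.77 to -0.72), and at 903 and 1327 CPM in those of the wildtype library (-0.55, -0.60 to -0.51). Bgn was at 162 CPM in lower and 274 CPM in upper mutant cells (-0.76), and at 180.3 and 236 CPM in those of the wildtype library (-0.39). Dcn was higher in lower cells, with 3017 CPM in lower and 2806 CPM in upper mutant cells (0.10, 0.09 to 0.12) and 3034 and 2134 CPM in wildtype ones (0.51, 0.48 to 0.53). Aspn was at 113 CPM in lower and 87.0 CPM in upper mutant cells (0.37, 0.29 to 0.45), and at 68.5 and 66.3 CPM in wildtype ones, where the interval of the log2 difference, -0.12 to 0.21, included 0. The layer markers did not include any of the 8 genes, but a class is defined by its markers, so genes that vary with them are described and not tested.

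In wildtype condensate cells the common members were low. Decorin was at 657 CPM (1260 UMIs) there, against 1786 CPM in Wnt-active cells, a log2 difference of -1.44 (-1.53 to -1.36), and lumican at 560.1 CPM against 1522 CPM (-1.44, -1.53 to -1.35). Bgn was at 121 and 204 CPM (-0.75). Aspn had 6 UMIs and Ogn 13 UMIs in all 161 condensate cells, 3.13 and 6.77 CPM, and Fmod had none. That allows a share of cells with a Fmod UMI of up to 2.27% and sets no limit on cells that express it. Prelp was the exception, with 14 UMIs in 161 condensate cells (7.29 CPM) against 21 UMIs in 1683 Wnt-active cells (0.918 CPM), a log2 difference of 2.99 (1.90 to 4.03). Its UMIs lay in 6.83% of condensate cells (3.46 to 11.9), against 0.389% of thinned wildtype erythroid-like cells. At least 1.5-fold higher in condensate than in Wnt-active cells were 17.4% of measured genes, and 18.8% were lower. Fibrillar collagen was also low in condensate cells, at 4675 CPM. Per 1000 collagen UMIs, Lum was at 119.8 there and 165 in Wnt-active cells, and Dcn at 140 and 193. Bgn was at 25.9 and 22.0, so beside collagen it was not low.

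**Figure D2:**
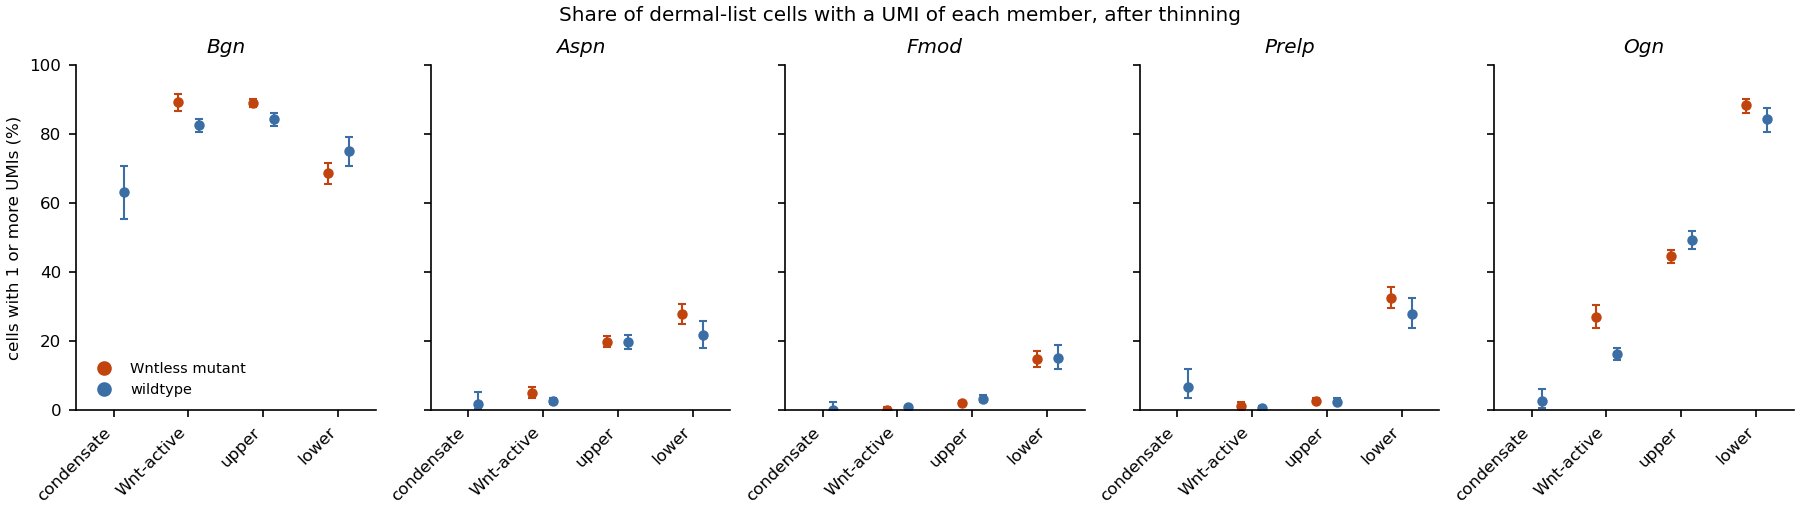
Share of thinned dermal-list cells (9000 UMIs each) with at least 1 UMI of 5 members, in percent, by marker class. Points are the Wntless mutant (left) and wildtype (right) libraries with exact Clopper-Pearson 95% intervals. The shares of Fmod, Prelp and Ogn step up in lower cells, to 14.8% and 15.2% for Fmod and 32.6% and 27.9% for Prelp.

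Wnt-active cells also differed from upper cells within each library. Aspn was at 18.4 CPM in Wnt-active and 87.0 CPM in upper mutant cells (log2 difference -2.24, -2.44 to -2.04), and at 8.09 and 66.3 CPM in wildtype ones (-3.03, -3.26 to -2.81). Ogn was lower too, with log2 differences of -1.30 in the mutant and -1.97 in the wildtype library. Lum was slightly higher in Wnt-active cells, by 0.18 and 0.20. Aspn and Ogn were thus scarcer in Wnt-active than in upper cells, and Lum was not. Dcn in both libraries, and Bgn in the wildtype library, were also lower in Wnt-active than in upper cells. In the mutant 3.41% of genes were at least 1.5-fold higher in Wnt-active than in upper cells and 8.37% lower, and in the wildtype library 7.47% and 8.91%.

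Within a class, mutant and wildtype cells were closer than in the dermis as a whole for several members. Lum and Bgn were not among them in every class. Over the processing settings tried, the Lum log2 ratio was 0.16 to 0.25 in upper and 0.16 to 0.22 in Wnt-active cells. It was 0.02 to 0.07 in lower cells and 0.07 to 0.21 in all dermal-list cells. For Bgn it was 0.27 to 0.36 in Wnt-active cells, -0.22 to -0.11 in lower cells and 0.05 to 0.24 in all dermal-list cells. In lower cells Dcn stood at 3017 CPM in mutant cells and 3034 CPM in wildtype ones, a log2 ratio of -0.01 (-0.03 to 0.02). Prelp was at 55.4 and 43.9 CPM (0.34, 0.13 to 0.55), Ogn at 409.6 and 326 CPM (0.33, 0.25 to 0.40) and Fmod at 20.2 and 20.7 CPM (-0.03, -0.35 to 0.29). Aspn alone was at least 1.5-fold higher there, with 113 CPM in mutant and 68.5 CPM in wildtype lower cells (0.72, 0.55 to 0.88), and 27.7% and 21.7% of cells positive. Of 12775 genes measured in lower cells, 7.97% were at least 1.5-fold higher and 3.54% lower.

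In upper cells no member reached 1.5-fold. Decorin was at 2806 CPM in mutant and 2134 CPM in wildtype upper cells (0.40, 0.38 to 0.41), and Aspn at 87.0 and 66.3 CPM (0.39, 0.30 to 0.48). The share of cells with Aspn was the same to within its interval, 19.8% (18.3 to 21.4) in mutant and 19.7% (17.7 to 21.8) in wildtype upper cells. Ogn, 1.62-fold higher in the whole dermis, was at 138 and 137 CPM in upper cells (0.01, -0.05 to 0.08), and its share was 44.6% in mutant and 49.4% in wildtype cells. The background was 9.06% higher and 4.7% lower of 14053 genes.

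The Wnt-active cells held the largest within-class differences among those tried, but they came from unlike clusters in mutant and wildtype. Of the mutant ones 62.1% lay in cluster 0, and of the wildtype ones 28.1% lay in cluster 7, which held no mutant cells. Aspn was at 0.821 CPM in cluster 7, and at 21.1 CPM in mutant and 19.9 CPM in wildtype cells of cluster 0. In cluster 1 it was at 12.6 and 7.62 CPM. Ogn was not higher in the mutant in cluster 0. The part of this make-up in the ratios below was not tested. Aspn was at 18.4 CPM (224 UMIs) in mutant and 8.09 CPM (185 UMIs) in wildtype Wnt-active cells, a log2 ratio of 1.19 (0.90 to 1.48), and in 4.82% and 2.50% of cells. Ogn was at 55.9 and 34.9 CPM (0.68, 0.53 to 0.83), with 27.0% and 16.2% of cells positive. Dcn, at 2672 and 1786 CPM, had a log2 ratio of 0.58 (0.56 to 0.60), just under the limit used. Prelp had 24 UMIs in mutant and 21 UMIs in wildtype Wnt-active cells (1.10, 0.20 to 2.02). Its share of cells was 1.13% (0.49 to 2.22) and 0.594% (0.285 to 1.09), with overlapping intervals. In erythroid-like cells that share was 0.275% and 0.389%. Fmod had 3 and 21 UMIs (-1.90, -4.28 to -0.15), a direction that turned when fewer Wnt genes were asked for or cells were not thinned, to 0.21 and 0.04. Here 8.3% of 12915 genes were at least 1.5-fold higher and 6.81% lower.

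**Figure D3:**
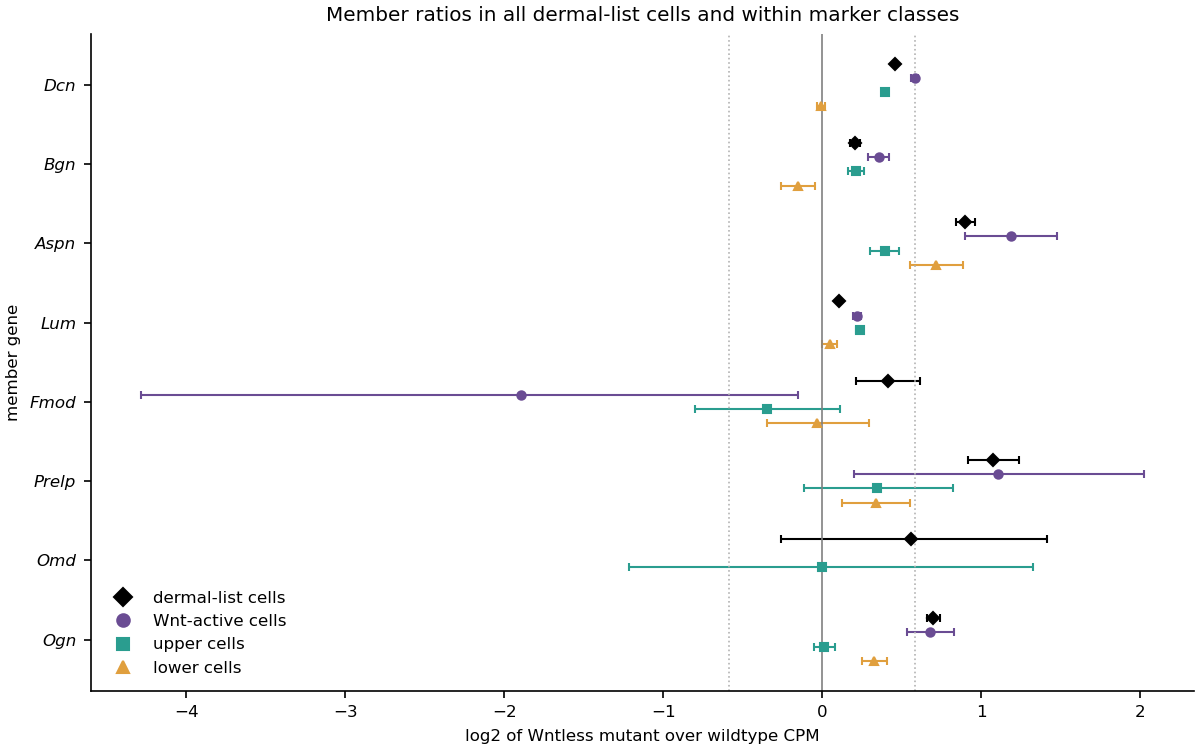
Log2 of Wntless mutant over wildtype CPM for each member (rows), in all dermal-list cells and within 3 marker classes, with exact conditional 95% intervals. The solid line is no difference and the dotted lines mark 1.5-fold; sets with fewer than 20 UMIs of a gene are left out. Ogn and Prelp lie past 1.5-fold in all dermal-list cells and below it in upper and lower cells, while in Wnt-active cells Aspn, Ogn and Prelp all pass it, and Aspn passes in lower cells too. Wnt-active cells came from unlike clusters in mutant and wildtype, and Prelp rests on 24 and 21 UMIs there.

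Giving classes or clusters equal weight moved the ratios of Aspn, Prelp, Ogn and Dcn toward 0. With the classes present in both libraries given equal weight, the log2 ratio of Aspn was 0.46, of Prelp 0.35 and of Ogn 0.14, against 0.90, 1.07 and 0.70 in the cells as they were. With every fibroblast cluster given equal weight they were 0.48, 0.66 and 0.27. Without cluster 7, a cluster with Foxd1, Gal, Sox18 and Sox2 on top that held 0 mutant and 1085 wildtype cells, they were 0.64, 0.87 and 0.45, and 2 members passed 1.5-fold. Dcn moved less, to 0.25, 0.22 and 0.38. Fmod changed direction, with -0.18 for equal classes, -0.02 for equal clusters and 0.14 without cluster 7, against 0.41 in the cells as they were. Equal weighting also leaves out classes or clusters found in 1 library, and the class weights leave out cells under 9000 UMIs. In a dermis sampled as summed UMIs, a change in the make-up of cells and a change in RNA per cell both enter the total, and within classes cut by markers they are only partly parted.

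Clusters made without the proteoglycan genes showed where single members were concentrated. None of the fibroblast clusters reached the 3 markers needed for a name, so they are given by number and leading genes. In cluster 3 (C1qtnf3, Nppc and Angptl1 high; 868 mutant and 814 wildtype cells) Aspn stood at 492 CPM in mutant cells and 305 CPM in wildtype ones. It was present in 80.6% and 64.7% of thinned cells there, with medians of 3 and 2 UMIs, and was itself the leading gene of the cluster although the clustering had not used it. Ogn was at 399 and 329.8 CPM in cluster 3. Bgn was at 361 and 324 CPM there, above its level in the 6 other fibroblast clusters. Kera, keratocan, another relative, was also found there, at 24.5 CPM in mutant and 27.2 CPM in wildtype cells, against 6.55 and 6.82 CPM in all dermal-list cells. Of these, Aspn passed 1.5-fold between the libraries, with a log2 ratio of 0.69 (0.62 to 0.76), beside 7.12% of measured genes at least 1.5-fold higher and 4.76% lower. As a leading gene of the cluster, Aspn is described there and not tested.

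Cluster 2 (Mfap5, Ren1 and Ccn3 high; 1078 mutant and 654 wildtype cells) held Prelp at 55.4 and 40.04 CPM, Fmod at 22.2 and 26.65 CPM and Ogn at 404 and 355 CPM. Dcn was at 2993 and 3098 CPM there, and Lum at 914 and 872 CPM. In this cluster too only Aspn passed 1.5-fold, at 53.3 CPM in mutant and 33.8 CPM in wildtype cells (0.66, 0.45 to 0.87), beside 7.21% of genes higher and 3.7% lower. Cluster 12 (Ly6a, Mfap5 and Ccn3 high; 286 mutant and 387 wildtype cells) lay mostly outside the dermal lists, with 34.6% of its cells on them. Prelp was at 46.8 CPM in mutant and 21.1 CPM in wildtype cells of cluster 12 (1.15, 0.84 to 1.46), beside 8.92% of genes at least 1.5-fold higher and 4.37% lower, and it too was a leading gene of its cluster. Aspn ran the other way in cluster 12, at 104 CPM in mutant and 148 CPM in wildtype cells (-0.51, -0.65 to -0.36). Without the top doublet scores it was at 95.0 and 173 CPM (-0.86, -1.04 to -0.69) and passed 1.5-fold downward, as did Bgn at 164 and 248.9 CPM (-0.60), while Fmod passed upward at 16.7 and 11.0 CPM (0.60, 0.06 to 1.16). Cluster 12 was thus the 1 fibroblast cluster of those named here in which Aspn was lower in the mutant.

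Clusters 0, 1 and 6 held Dcn, Lum and Bgn, with less Aspn, Fmod and Prelp than the dermal lists. In cluster 0 (Rspo1, Pcsk6 and Igfbp5 high; 2073 mutant and 818 wildtype cells) Dcn was at 2974 CPM in mutant and 2312 CPM in wildtype cells (0.36), Lum at 1721 and 1508 CPM and Ogn at 100.2 and 118 CPM, in 41.1% and 50.5% of thinned cells. Fmod had 12 and 13 UMIs there and passed 1.5-fold downward (-1.85, -3.12 to -0.60), beside 9.94% of genes higher and 5.08% lower. In cluster 1, led by histone genes, Aspn was the member past 1.5-fold, at 12.6 CPM in mutant and 7.62 CPM in wildtype cells (0.72, 0.39 to 1.06), beside 7.86% of genes higher and 6.38% lower. In cluster 6, led by mitosis genes such as Cenpa and Ccnb2, no measured member passed, beside 7.51% higher and 5.98% lower.

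Members met in single cells in repeated patterns. A median of 4 of the 8 members was detected per thinned mutant and 3 per thinned wildtype dermal-list cell, and 5 or more in 21.9% (1023) and 13.2% (528) of cells. In cluster 3 the share with 5 or more was 66.1% and 51.1%. Among upper cells, Ogn was found in 77.0% of mutant and 76.3% of wildtype cells that held Aspn, and in 36.6% and 42.8% of cells that did not. Among lower cells, Prelp was found in 15.6% of mutant and 10.6% of wildtype cells with Aspn, but in 39.1% and 32.6% of cells without it. Aspn and Ogn thus shared cells, and Aspn and Prelp parted, within 1 class and in both libraries, at 1 fixed depth.

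Across 37 profiles, each the cells of 1 cluster in 1 library, the genes closest to each member were taken by Pearson correlation of log2(CPM + 1) over 10615 genes. Profiles share libraries and their ambient RNA, so these values only describe. Dcn was closest to Lum (0.98), Col1a1 and Col3a1, and Lum to Vcam1, Cdo1 and Dcn. Bgn was closest to Serpinh1, the collagen chaperone (0.97), Eva1b and Ndn, and Aspn to Thbs2, a matricellular gene of tendon and fascia (0.93), Agtr2 and Ccdc80. Fmod was closest to Srpx2 (0.88), Scara5 and Clu, Prelp to Thbs3 (0.95), Scara5 and Col6a6, and Ogn to Dlk1 (0.94), Lrrc17 and Dpt. Omd, with few UMIs, reached 0.73 with Stra6, 0.72 with Ddx58 and 0.72 with Hecw2. Over the 13 fibroblast profiles alone, Lum was opposed to Fmod (-0.94) and Prelp (-0.90), while Aspn ran with Ogn (0.88) and Fmod with Prelp (0.90). Dcn and Lum, close over all 37 profiles, did not run together over those 13 (-0.39).

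Outside the dermis, Aspn, Bgn, Fmod, Ogn and Dcn were each also found in at least 1 other cell type. Mural-like cells, the smooth muscle and pericyte coat of vessels (225 mutant and 223 wildtype cells), held Aspn at 233 CPM in mutant cells and 203 CPM in wildtype ones. That was 2.42 and 3.96 times the level of the dermal lists. Cells with a high doublet score were frequent there, so the values were also taken without the top 8% of scores in each library. Aspn was then at 213 and 225 CPM, with medians of 5 and 4 UMIs per cell before thinning, and Bgn at 227 and 194 CPM, while Dcn was at 218 and 196 CPM, far below its dermal level. Fmod was at 12.8 and 6.42 CPM in these mural-like cells, from 65 and 22 UMIs, against 6.69 and 5.03 CPM in the dermal lists. With all scores kept it was at 10.6 and 5.07 CPM, and 7.28% of all genes were at least 1.5-fold higher and 3.6% lower in mutant mural-like cells with all scores kept.

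Muscle-like cells held Ogn and Bgn, with little Dcn or Lum in the Pax7- and Myf5-bearing cluster once the top doublet scores were left out. In the Pax7- and Myf5-bearing cluster (410 mutant and 414 wildtype cells), without the top scores, Ogn stood at 51.1 CPM in mutant cells and 32.6 CPM in wildtype ones (log2 0.65, 0.41 to 0.90), and Bgn at 54.3 and 62.8 CPM. Dcn was at 18.2 and 25.1 CPM and Lum at 5.39 and 5.75 CPM. In the Myog- and Mymk-bearing cluster (70 and 110 cells), likewise without the top scores, Ogn was at 49.6 and 58.7 CPM, with Aspn, Fmod, Prelp and Omd at 0 or 1 UMI in each library. The ratios of this small cluster turned with the doublet step, which left 65 and 105 cells. Dcn had 5 and 79 UMIs and Lum 11 and 58 UMIs after it, but 149 and 139 CPM (0.10, -0.15 to 0.35) and 82.4 and 66.3 CPM (0.31, -0.04 to 0.67) with all cells kept. Ogn was at 48.8 and 76.1 CPM with all cells kept, at least 1.5-fold lower in the mutant (-0.64, -1.04 to -0.25), a call lost after it (-0.24, -0.68 to 0.19). With top scores kept, 4.18% of genes of the first cluster were at least 1.5-fold higher in the mutant and 5.68% lower, against 6.8% and 9.13% in the second and 4.14% and 5.66% in both together.

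In macrophage-like and erythroid-like cells the members were lower once high doublet scores were left out. Macrophage-like cells had Dcn at 165 CPM in mutant and 348 CPM in wildtype cells, and at 13.3 and 32.9 CPM without the top scores, where the median cell had 0 UMIs. Aspn was then at 0.127 and 2.09 CPM and Ogn at 0.509 and 0.522 CPM. Erythroid-like cells kept Dcn at 89.96 and 19.3 CPM and Lum at 49.6 and 13.5 CPM without the top scores. Their Dcn to Lum ratio, 1.81 and 1.43, was near that of the dermis. In the mutant this level was carried by few cells: of 1069 thinned cells 33 (3.09%) held 3 or more Dcn UMIs, and 87 held any. What those barcodes contain was not tested.

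**Figure D4:**
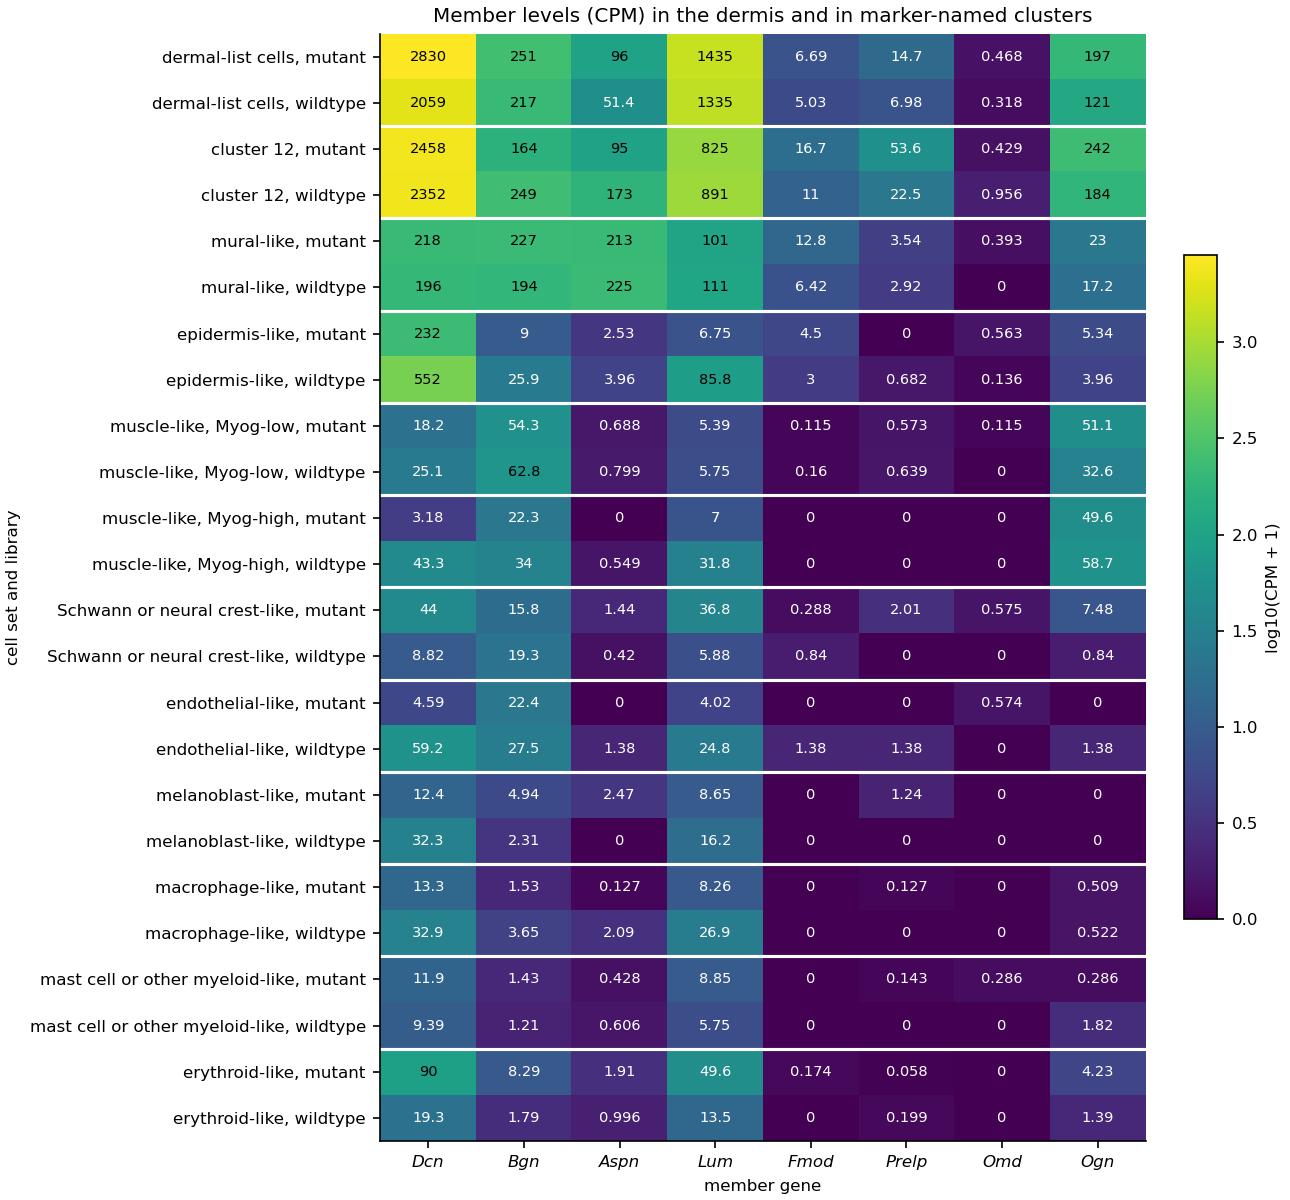
Level of each member in CPM (numbers) in dermal-list cells, cluster 12 and marker-named clusters, mutant row above wildtype row. Colour is log10(CPM + 1). All sets but the dermal-list cells leave out the top 8% of doublet scores. Mural-like cells hold Aspn above and Bgn near its dermal level, and Fmod above its dermal level in the mutant. For wildtype Fmod, with 22 UMIs in mural-like cells, the Poisson intervals overlap. Muscle-like cells hold Ogn and Bgn, and epidermis-like cells hold Dcn above the other members.

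Decorin was also detected in epidermis-like cells, with less Lum and collagen beside it than in the dermis. Dcn was at 355 CPM (1531 UMIs, 173 cells) in mutant and 667 CPM (6014 UMIs, 554 cells) in wildtype epidermis-like cells, a log2 ratio of -0.91 (-0.99 to -0.83). The genes at least 1.5-fold lower in the mutant epidermis-like cells were 15.7% of 11578, and 7.65% were higher. Without the top doublet scores Dcn was at 232 and 552 CPM (-1.25), and Lum at 6.75 and 85.8 CPM. The ratio of Dcn to Lum was then 34.4 in mutant and 6.43 in wildtype epidermis-like cells, far from the 1.97 and 1.54 of the dermis. Dcn per 1000 fibrillar collagen UMIs was 1953 and 1159.9 in these cells, against 172 and 183 in the dermal lists. The median epidermis-like cell, without the top scores and before thinning, had 5 Dcn UMIs in the mutant and 6 in the wildtype library. The median depth of those cells was unlike, at 23376 UMIs in the mutant and 14170 UMIs in the wildtype library.

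The wildtype epidermis held placodes, the thickenings that start a follicle, and the split by them was chosen after the values had been seen. Cells with 3 or more of 6 placode genes numbered 0 in the mutant and 113 in the wildtype library, and cells with none of them 152 and 244. In wildtype placode-positive cells Dcn was at 816 CPM, with a UMI in 94.7% of cells, and in wildtype placode-negative cells at 556 CPM, with a UMI in 85.7% (log2 difference 0.55, 0.46 to 0.65). Without the top scores the 106 placode-positive cells left had 1230 Dcn UMIs, 6 Lum UMIs and 106 fibrillar collagen UMIs. Dcn was at or above 5 UMIs in 63.2% of those thinned cells, against 46.6% of wildtype condensate cells, and Lum had a UMI in 0.943% of them, against 90.1% of condensate cells. Placode-positive cells thus held Dcn at least as often as condensate cells, 94.3% against 88.2%, with almost no Lum.

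Dcn was also lower in the mutant among cells without placode genes. In placode-negative cells it stood at 343 CPM in mutant cells and 556 CPM in wildtype ones (-0.70, -0.79 to -0.60), and at 230.5 and 449 CPM without the top scores (-0.96, -1.09 to -0.84). Of all genes in placode-negative cells, top scores kept, 7.41% were at least 1.5-fold higher and 11.9% lower. Dcn was present in 73.7% of 133 mutant and 83.7% of 209 wildtype placode-negative cells left after that step, thinned to 9000 UMIs, and in 8.14% and 6.45% of erythroid-like cells treated alike. Lum differed more, at 6.76 CPM in mutant and 142 CPM in wildtype placode-negative cells. However, 18 of those 209 wildtype cells (8.61%) held 5 or more Lum UMIs, against 1 of 133 mutant cells, and fibrillar collagen was at 120.2 and 746 CPM. The Dcn of those Lum-bearing cells was not taken apart, and their part in the Lum and Dcn differences was not tested.

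**Figure D5:**
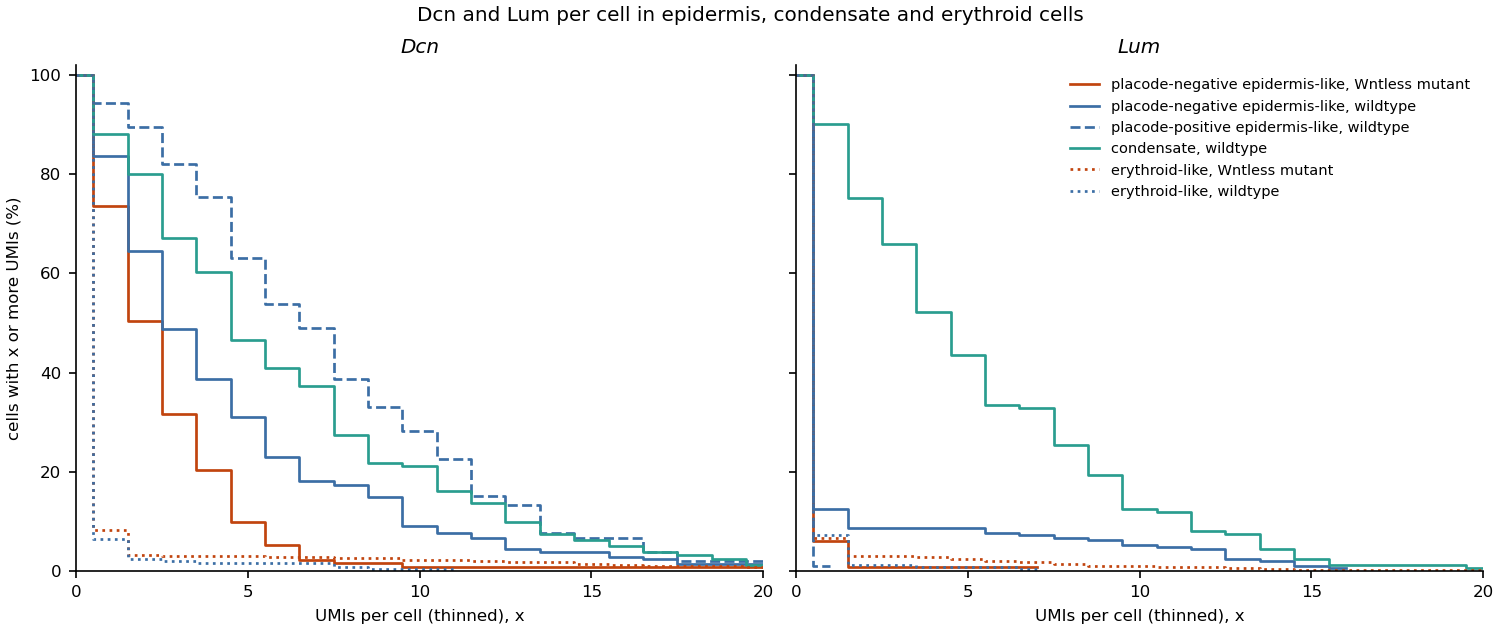
Percent of cells (y axis) with x or more UMIs (x axis) of Dcn (left) and Lum (right) per cell thinned to 9000 UMIs, for epidermis-like cells with and without placode genes, wildtype condensate cells and erythroid-like cells. Epidermis-like and erythroid-like cells leave out the top 8% of doublet scores. Dcn reaches 5 or more UMIs in 9.77% of mutant and 31.1% of wildtype placode-negative cells and in 63.2% of wildtype placode-positive cells, whereas Lum is found in most cells of the condensate set only, among the sets drawn.

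The relatives and partners of the 8 genes in the dermal-list cells were summarised from 6 lists, to be read against the 10.9% of all genes that were at least 1.5-fold higher and the 5.64% that were lower. Over the lists 13 genes were higher, and 4 with classes or with clusters weighted alike. Of 7 measured relatives 1, the myelin glycoprotein Omg, was at least 1.5-fold higher in the mutant, from 27 and 13 UMIs and with an interval that included no difference (0.69, -0.32 to 1.76). The median log2 ratio of the relatives was 0.06. Optc (0.591 and 0.811 CPM), Ecm2 (0.579 and 0.636 CPM), Chadl (6.39 and 4.93 CPM) and Tsku (6.36 and 4.87 CPM) were all low. Among collagens, the fibrils that these proteoglycans coat, 5 of 13 were at least 1.5-fold higher and none lower, with a median of 0.54. The most different were Col5a3 at 12.1 CPM in mutant and 5.07 CPM in wildtype cells (1.25, 1.07 to 1.44), Col14a1, a fibril-associated collagen, at 448 and 232 CPM (0.95), Col11a1 at 36.7 and 20.6 CPM (0.84) and Col5a2 at 593 and 392 CPM (0.60). Col14a1 and Col11a1 also served as markers of the lower layer and of tendon.

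Of 20 genes for the linker and for chondroitin or dermatan sulfate chains, 2 were higher and none lower, a share near that of all genes, with a median of 0.16. Chst11, a chondroitin sulfotransferase, was at 3.60 CPM in mutant and 1.78 CPM in wildtype cells (1.01, 0.69 to 1.34) and the synthase Chsy3 at 14.1 and 8.30 CPM (0.77). Chpf and Chpf2, both polymerising factors, had ratios of 0.49 and 0.48. Of 8 measured keratan sulfate genes, B3gnt7 (71 and 32 UMIs, 0.78) and Chst1 (0.62) were higher, B4galt4 was at 0.23 and Chst5 at -0.32, and the median was 0.04. Of 14 measured receptors, ligands and proteases 3 were higher and 1 lower. Tgfb2, a ligand that decorin and biglycan bind, was at 36.5 CPM in mutant and 13.9 CPM in wildtype cells (1.40, 1.29 to 1.51), Met, a receptor reported to bind decorin, at 6.38 and 3.29 CPM (0.95) and the proteoglycan protease Adamts5 at 32.4 and 17.3 CPM (0.91). Tgfb1 was lower, at 11.1 and 16.7 CPM (-0.59). Of 13 large or membrane proteoglycans none passed, with Hspg2 (perlecan) at 0.56, Srgn at 0.55, Cspg4 at 0.46 and Sdc1 at -0.56, and a median of 0.31.

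Asporin was also high beside tendon markers. Fibroblast-cluster cells with 1 or more of Scx, Tnmd and Mkx, a split chosen after the values had been seen, numbered 199 in the mutant and 94 in the wildtype library. Aspn was at 322 CPM in these mutant cells and 84.9 CPM in mutant fibroblasts without the markers, a 3.80-fold difference. In the wildtype library it was at 199 and 50.6 CPM, a 3.93-fold difference. Fmod, itself a tendon proteoglycan, was at 4.52 CPM (15 UMIs) with and 6.90 CPM without the markers in the mutant, and at 6.86 CPM (9 UMIs) and 4.73 CPM in the wildtype library, with intervals of the difference that included 0. Bgn was 1.39 and 1.17 times as high with the markers, and Lum differed by no more than 1.19-fold in either library.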

How the data were processed

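Single-cell UMI counts were deposited by the authors as 1 matrix per library. Per the file headers the counts come from Cell Ranger 6.1.2, and the submitters' processing notes name Seurat and mm10. The deposited barcode, gene and dermal-list files hold other information, the names of cells and genes. How dermal cells were listed is not given in the sources used here.

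UMIs were summed per class and library and divided by the class total (CPM). Intervals are exact, Poisson for sums, conditional binomial for ratios and Clopper-Pearson for shares, at 95%. Cells were thinned without replacement to 9000 UMIs for marker counts and shares, which left out 367 mutant and 1300 wildtype dermal-list cells. All barcodes were clustered jointly in scanpy 1.11.5 (2000 variable genes without proteoglycan genes, 30 principal components, 15 neighbours, Leiden 0.5, no batch correction), giving 23 clusters. A name needed 3 markers among the top 50 genes. Scrublet called 159 mutant and 225 wildtype doublets (1.52% and 2.48%), which were kept. Leaving out the top 8% of scores was an alternative. A gene was taken as measured from 20 UMIs upward, summed over mutant and wildtype. In each partner list, up to 4 genes were named, those with the largest absolute ratio among genes of at least 50 UMIs. Omg was named after its values were seen. The members and lists were chosen with earlier results of these data known. The ratio intervals were tested on simulated independent Poisson counts. These held no spread between cells, embryos or libraries, so the simulation covers counting error only. Analyses used Python 3.11.15, numpy 2.4.6, scipy 1.17.1 and pandas 2.3.3.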

Additional observations from a re-analysis of the deposited data

How the results depend on the processing

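The count of members at least 1.5-fold higher in the mutant dermis, 3, was 0 with marker classes weighted alike, 1 with clusters weighted alike and 1 with classes in wildtype proportions, an alternative chosen after seeing the data. The 13 partner genes higher were 4, 4 and 6 under the same settings. The 1 partner gene lower was 4 with list members of 1 or more UMIs, 2 with median-of-ratios scaling, with dermal clusters in place of the lists and in wildtype proportions, and 0 without the top 50 genes, without the top 8% of doublet scores and with clusters weighted alike. The 1 ratio within classes that was lower, Fmod in Wnt-active cells, became 0 with 2 of 8 markers, thinning to 6000 UMIs, no thinning or the top 8% of scores left out. Its log2 ratio turned to 0.21 with 2 of 8 markers and 0.037 with no thinning, and 24 UMIs lie behind it. In all dermal-list cells, Fmod (0.41) turned to -0.18 with classes weighted alike, -0.02 with clusters weighted alike and -0.26 in wildtype proportions. Of the remaining results, 51 comparison counts and 180 single values stayed within their limits and 80 single values moved. Weighting changes which cells count, and the cause was otherwise not tested. Scaling by median of ratios shifted every log2 ratio by -0.03 and scaling without the top 50 genes by 0.02. No paired analysis was possible because there was 1 library per genotype. Depth limits Omd, with 38 and 20 UMIs, and Fmod and Prelp in condensate and Wnt-active cells.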
